A study of Homo sapiens with 6 samples.

Results

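BMP4 is a secreted growth factor of the bone morphogenetic protein (BMP) family, and it was studied here together with genes that carry, restrain or report BMP signals: the ligands BMP2 and BMP7, the receptors BMPR1A and BMPR2, the inhibitors SMAD6 and BAMBI, and the target genes ID1, ID2 and ID3. Members were the probe sets that the platform annotation assigns to exactly 1 of these 10 genes, with every probe set of a gene kept. This gave 18 probe sets for 9 genes among 22215 non-control probe sets. No probe set carried the symbol of BMPR1A alone, so that gene was not analysed here. The genes were chosen by the intensities of these 6 arrays, in particular by the difference of BMP4 between the 2 lines, so the values of the members below are a description. Where members are counted as past a threshold, the count describes the same values that chose them and supports nothing.

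E1, a metastatic colon cancer line obtained in vivo according to the labels, was set against HCT116, a poorly metastatic colon cancer line. Both lines carry HCT116 as their cell line label, and no treatment, genotype change or passage is given for either. The labels name no host, organ or selection step for E1, and do not say whether it is 1 clone. Affymetrix arrays were hybridised with biotin-labelled total RNA, 3 arrays a line, called triplicates in the labels with no word on separate cultures, so the spread between arrays may be technical.

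BMP ligands are dimers that bring type I and type II receptor kinases together. The type I kinase then phosphorylates SMAD1, SMAD5 and SMAD9, which enter the nucleus with SMAD4 and switch on targets, among them the ID genes, whose proteins bind E proteins and keep them off DNA. SMAD6 and BAMBI are themselves BMP targets and act as feedback inhibitors. In the intestine BMP signals are strongest away from the crypt base and restrain stem cell self-renewal, while secreted antagonists shield the base, and inherited loss of BMPR1A causes juvenile polyposis.

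The arrays of E1 were not alike in RNA quality. The signal of the GAPDH control at the 3′ end over that at the 5′ end was 0.803 on E1 array 1, 34.1 on E1 array 2 and 71.9 on E1 array 3, and lay between 0.774 and 0.811 on the HCT116 arrays. Of 8930 probe sets with a mean intensity of at least 100, 8.58% read at least 1 log2 unit lower on both E1 arrays 2 and 3 than on E1 array 1, and 0.739% at least 1 higher. Each difference of a member is therefore also given for E1 array 1 taken by itself. Of the 12 colon epithelium markers 5 had a mean intensity of at least 100, namely EPCAM, CDH1, KRT8, KRT18 and KRT19, whereas the defining markers VIL1, CDX1, CDX2 and CDH17 were dim, at most 41.4 on any E1 array and 22.5 on any HCT116 array. In the limma fit 0 of the 12 were called different, but their summed level was lower on every E1 array, at 11724 to 14716 in E1 and 16906 to 19541 in HCT116. KRT8, a keratin of simple epithelia, read 2862, 372 and 103 in E1, against 4693, 3169 and 4352 in HCT116. The log2 differences, E1 minus HCT116, were -2.91 for KRT8, -0.80 for KRT19 and -0.40 for KRT18. They were 0.40 for EPCAM and 0.03 for CDH1, so the lower sum does not describe each marker. EPCAM read 1691, 2950 and 3428 in E1, against 1956, 2009 and 1885 in HCT116. The summed level of 7 fibroblast markers was 289 to 426 in E1 and 362 to 415 in HCT116, with LUM at most 2.96 in E1 and 0.492 in HCT116. The part of these values in the results was not tested.

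Promoter sequences are shown for BMP4 and BAMBI, the 2 members whose arrays did not overlap between the lines. They are RefSeq sequences of build GRCh38.p14, from 250 bases before to 50 after each annotated start, and 8 of the 10 members matched an entry. BMP4 has 3 such windows on chromosome 14, and a probe set intensity does not say which start was used. Capitals mark matches, on either strand, to GGCGCC, a palindrome bound by SMAD proteins in BMP-responsive elements, and to CAGAC, the SMAD box, whose other strand reads GTCTG.
BMP4 start most upstream, chr14:53955001-53955300, strand -: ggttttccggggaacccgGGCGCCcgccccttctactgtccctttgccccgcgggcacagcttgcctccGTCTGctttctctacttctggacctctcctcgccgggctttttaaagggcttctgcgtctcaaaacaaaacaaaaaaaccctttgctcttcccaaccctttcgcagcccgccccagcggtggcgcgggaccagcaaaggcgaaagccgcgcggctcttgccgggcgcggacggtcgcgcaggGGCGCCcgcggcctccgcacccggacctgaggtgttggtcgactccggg
BMP4 start in between, chr14:53954439-53954738, strand -: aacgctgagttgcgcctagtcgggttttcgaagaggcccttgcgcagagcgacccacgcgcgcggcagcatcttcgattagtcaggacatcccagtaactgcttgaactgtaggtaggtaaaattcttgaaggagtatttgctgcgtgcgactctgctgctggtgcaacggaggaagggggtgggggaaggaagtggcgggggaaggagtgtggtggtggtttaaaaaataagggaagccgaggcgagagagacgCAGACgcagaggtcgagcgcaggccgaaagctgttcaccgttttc
BMP4 start most downstream, chr14:53953346-53953645, strand -: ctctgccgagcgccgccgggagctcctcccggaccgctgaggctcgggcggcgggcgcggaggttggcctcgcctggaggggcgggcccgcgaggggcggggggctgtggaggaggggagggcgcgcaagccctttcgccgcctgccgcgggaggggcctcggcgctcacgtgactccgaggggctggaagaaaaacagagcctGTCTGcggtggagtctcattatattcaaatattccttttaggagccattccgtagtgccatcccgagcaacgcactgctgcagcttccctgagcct
BAMBI, chr10:28677271-28677570, strand +: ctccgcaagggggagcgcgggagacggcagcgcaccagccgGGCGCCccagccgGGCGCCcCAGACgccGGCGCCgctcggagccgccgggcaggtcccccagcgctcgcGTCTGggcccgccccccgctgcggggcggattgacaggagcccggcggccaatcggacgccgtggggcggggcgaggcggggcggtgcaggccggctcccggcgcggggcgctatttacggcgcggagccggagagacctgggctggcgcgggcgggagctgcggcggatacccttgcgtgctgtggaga
The window of the most upstream BMP4 start held GGCGCC at 2 places and the SMAD box at 1, and the other BMP4 windows held 1 SMAD box each. The BAMBI window held GGCGCC at 3 places and the SMAD box at 2. Over all 10 member windows, 3 held GGCGCC and 6 the SMAD box, against 19.2% and 45.3% of 35116 promoter windows of the same length. CTTTGA, the core of the site of the Wnt effectors TCF and LEF, was found in 1 member window, that of ID3, and in 12.9% of all windows. No match in this table overlapped another motif, and a match of letters is no evidence of binding.

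Among the ligands, BMP4 was the member with the largest difference. Its single probe set read 1908, 1229 and 1350.3 on the E1 arrays, against 336, 225 and 424 on the HCT116 arrays. All 3 E1 arrays were above all 3 HCT116 arrays, and the lowest E1 value was the one on array 2. The means were 1496 ± 362 in E1 and 328 ± 99.6 in HCT116 (SD, n = 3 each), a ratio of 4.56. On the scale of log2(intensity + 32), on which differences of dim probe sets are understated, E1 minus HCT116 was 2.10 (SE 0.27, 95% interval 1.45 to 2.74). It was 2.47 (SE 0.36) with E1 array 1 alone, the E1 array whose GAPDH ends read alike, and 1.91 without that array.

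**Figure D1:**
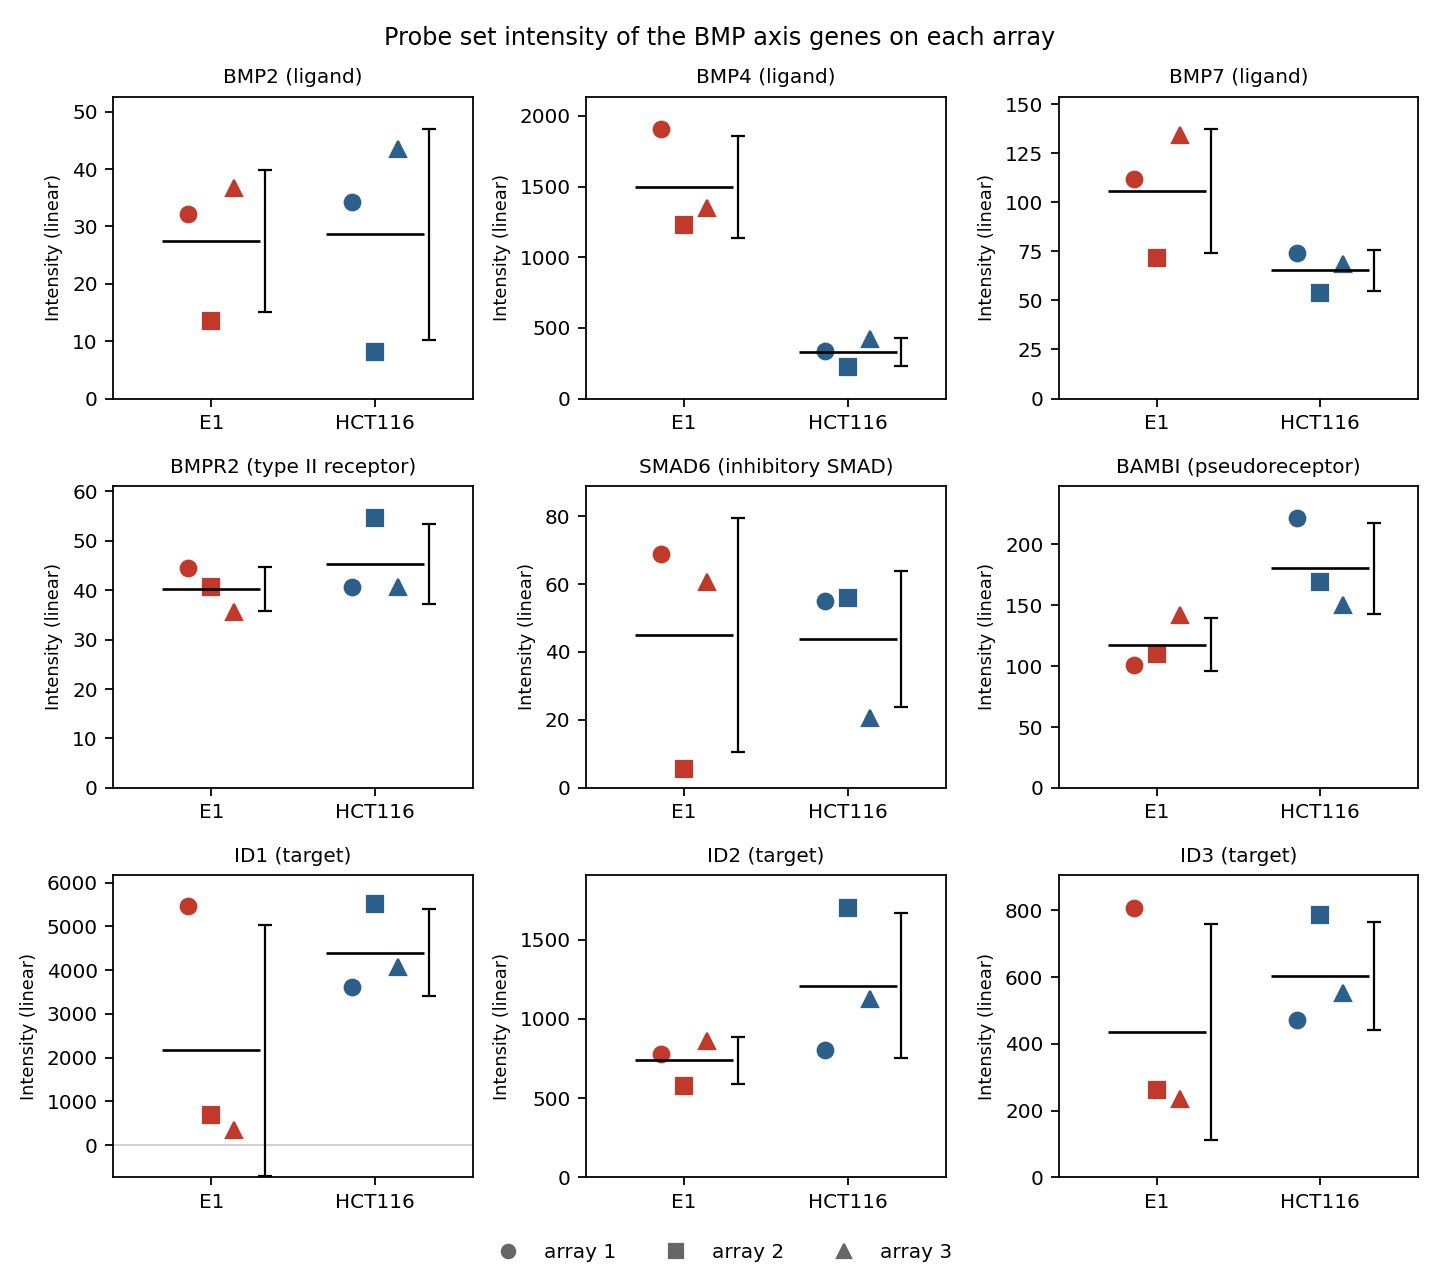
Intensity on a linear scale for 9 BMP axis genes, each by its brightest probe set, on the 3 arrays of E1 (left, red) and of HCT116 (right, blue). Horizontal lines are means and bars beside them SDs, which for ID1 in E1 reach below 0. BMP4 lies between 1229 and 1908 in E1 and between 225 and 424 in HCT116, BAMBI is lower on every E1 array, and ID1 and ID3 are low on E1 arrays 2 and 3 only.

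BMP2, the ligand most closely related to BMP4, was dim in both lines and its arrays overlapped. The brighter of its 2 probe sets read 32.2, 13.5 and 36.7 in E1, against 34.3, 8.13 and 43.5 in HCT116. The difference had a 95% interval from -0.70 to 0.69, and the value was 0.13 with E1 array 1 alone. The scale understates differences at this low intensity, so that interval cannot be set against the BMP4 difference. The dimmer BMP2 probe set read at most 8.54 in E1 and 17.1 in HCT116, at -0.25 (95% interval -0.62 to 0.12) and -0.31 with E1 array 1 alone.

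BMP7, a ligand of a separate subgroup, had 4 probe sets that did not move together. The brightest read 112, 71.6 and 134 in E1, against 74.1, 53.6 and 68.3 in HCT116, a difference of 0.48 (SE 0.20, 95% interval -0.02 to 0.97). The lowest E1 array lay just under the highest HCT116 array, so the lines overlapped. A second probe set stood at 0.58 (SE 0.29), while the other 2 stood at -0.20 (SE 0.26) and -0.07 (SE 0.15). With E1 array 1 alone the 4 values were 0.57, 0.28, 0.17 and -0.07. The probe set at -0.20 read 61.4, 49.2 and 17.8 in E1, against 57.3, 39.0 and 58.1 in HCT116, so its sign rested on E1 array 3.

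BMPR2, the type II receptor kinase, gave no separation of the lines. Its brighter probe set read 44.5, 40.6 and 35.7 in E1, against 40.6, 54.5 and 40.6 in HCT116, a difference of -0.09 (SE 0.13, 95% interval -0.40 to 0.22). With E1 array 1 alone it was -0.01, and the sign turned to 0.06 when array medians were subtracted. The other BMPR2 probe set stood at -0.08 (95% interval -0.67 to 0.52), and at -0.11 with E1 array 1 alone, at a mean of 15.7 in E1 and 18.6 in HCT116.

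Of the inhibitors, BAMBI, a pseudoreceptor that lacks the kinase domain, was lower on every E1 array. It read 101, 109.8 and 142 in E1, against 222, 169 and 150.0 in HCT116. The gap between the nearest arrays of the lines was small beside the range within HCT116. The means were 118 ± 21.6 in E1 and 180.3 ± 37.0 in HCT116 (SD, n = 3 each), and the log2 difference was -0.50 (SE 0.18, 95% interval -0.93 to -0.07). With E1 array 1 alone it was -0.66, and under the alternatives that kept all arrays it ran from -0.61 to -0.28.

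SMAD6, which blocks receptor-activated SMADs, was dim on all 4 of its probe sets. The brightest read 68.7, 5.50 and 60.6 in E1, against 55.1, 55.8 and 20.7 in HCT116, with 1 low array in each line. The difference was -0.07 with a wide 95% interval, from -1.11 to 0.97, and 0.45 with E1 array 1 alone. The other 3 stood at 0.10, 0.16 and 0.06 at mean intensities from 5.87 to 19.0 in E1 and 4.33 to 16.1 in HCT116, and at 0.07, 0.36 and 0.02 with E1 array 1 alone.

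**Figure D2:**
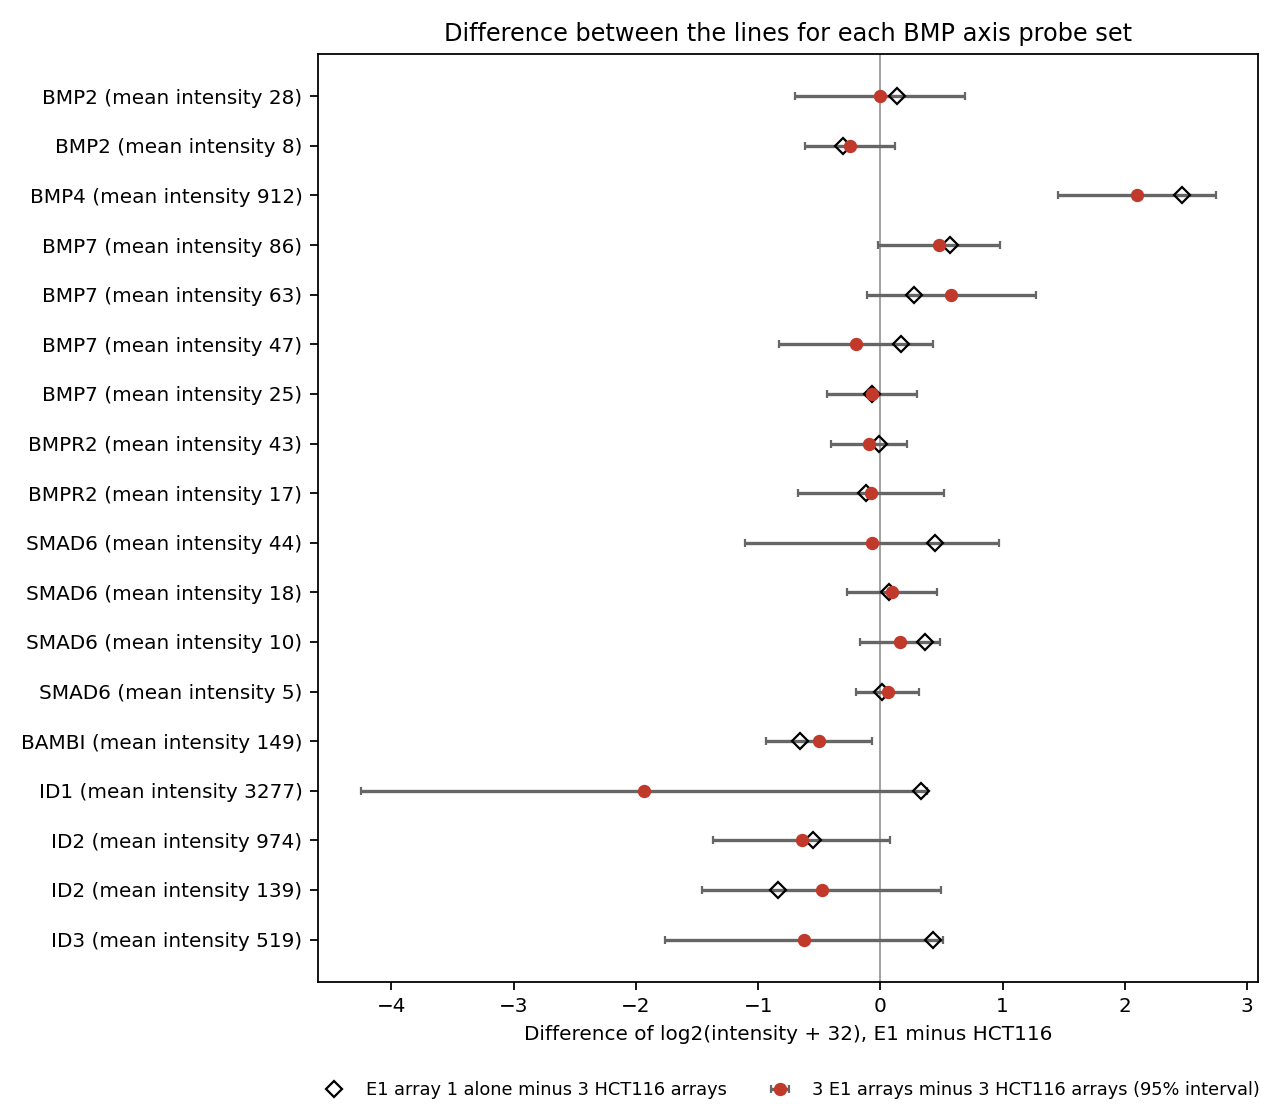
Difference of log2(intensity + 32), E1 minus HCT116, for the 18 probe sets, using all arrays (red points with 95% intervals from limma) and E1 array 1 by itself (open diamonds). BMP4 stands at 2.10 and 2.47. For ID1 the points lie at -1.94 and 0.34 and for ID3 at -0.63 and 0.43, on either side of 0.

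The ID genes, the classic transcriptional targets of BMP signals, were lower in mean intensity in E1, with the E1 arrays of ID1 and ID3 split. ID1 read 5461, 676 and 347 in E1, against 3608, 5506 and 4064 in HCT116. E1 array 1 lay within the HCT116 range, and E1 arrays 2 and 3 lay far below it. ID3 read 809, 261 and 235 in E1, against 472, 786 and 554 in HCT116, and here E1 array 1 was the highest of the 6. For both genes E1 arrays 2 and 3 were the lowest. With all arrays the log2 differences were -1.94 (SE 0.95, 95% interval -4.25 to 0.38) for ID1 and -0.63 (SE 0.47, 95% interval -1.76 to 0.51) for ID3. With E1 array 1 alone they had the opposite sign, 0.34 (SE 0.29) for ID1 and 0.43 (SE 0.32) for ID3, and without that array they were -3.07 and -1.15. Both then passed the limma threshold, as did BMP4 and 10.6% of all probe sets. ID1 and ID3 were the 2 of 6 member probe sets with a mean intensity of at least 100 that read at least 1 log2 unit lower on both E1 arrays 2 and 3 than on array 1, the pattern of 8.58% of all such probe sets. The part of RNA quality in these values was not tested.

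ID2 did not split in this way. Its brighter probe set read 778, 575 and 861 in E1, against 800.5, 1702 and 1127 in HCT116, and E1 array 3 alone lay above the lowest HCT116 array. The log2 difference was -0.64 (SE 0.30, 95% interval -1.37 to 0.08), and -0.55 with E1 array 1 alone. The other ID2 probe set, of the type that can also bind related transcripts (_x_at), stood at -0.48 (SE 0.40) and -0.84.

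**Figure D3:**
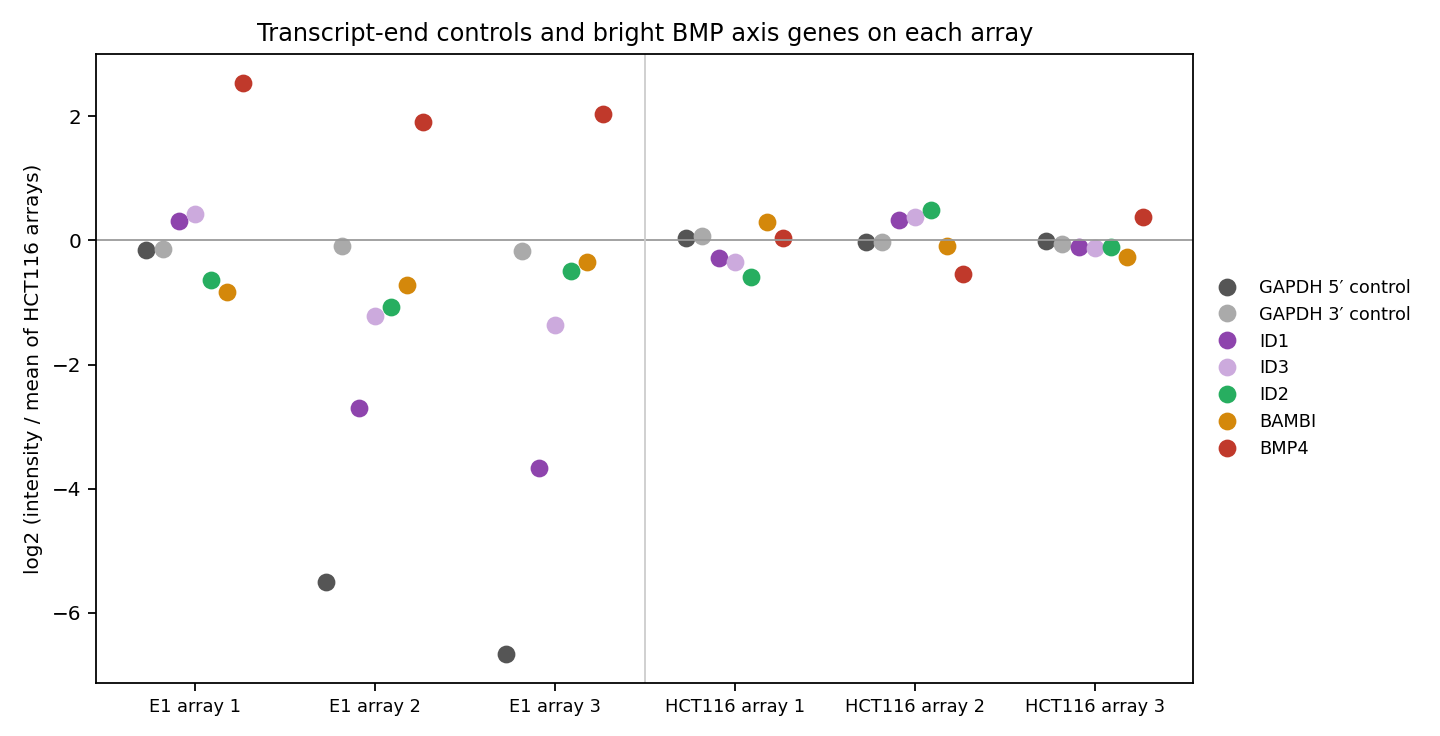
Intensity of the 3′ and 5′ GAPDH controls and of 5 BMP axis genes on each array, as log2 of the ratio to the mean of the HCT116 arrays. The 5′ control is low on E1 arrays 2 and 3, where ID1 and ID3 are low too, while BMP4 is high and BAMBI low on all E1 arrays.

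Across all 22215 probe sets, limma called 171 different at a Benjamini-Hochberg adjusted p under 0.05, which is 0.770%, with 48 (0.216%) higher and 123 (0.554%) lower in E1. Other scalings gave 79 higher and 108 lower (quantile normalization) or 79 higher and 127 lower (array medians subtracted), the last moving the median difference of all probe sets from -0.02 to 0.13. Of the 18 member probe sets 1 was called, BMP4, and 17 were not. Leaving out any 1 array other than E1 array 1 left 5 to 9 calls among all probe sets and 0 among the members, and with E1 array 1 alone limma called 0 of either. Arrays of the lines did not overlap, with E1 higher, for 1 member probe set, BMP4, and for 7.45% of all, and with E1 lower for 1, BAMBI, and for 13.0% of all. The members had a median difference of -0.07, or 0.10 with E1 array 1 alone, against -0.02 and -0.05 for all probe sets. These counts use the contrast on which the genes were chosen.

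The other genes of the pathway were taken from 7 lists with 85 genes, of which 71 had 140 probe sets. In the limma fit 0 of these rose and 2 fell in E1, and an unadjusted p under 0.05 gave 6 higher and 17 lower. Over all 22215 probe sets that unadjusted threshold gave 4.75% higher and 11.7% lower in E1. The counts of each list below stand beside these shares. The median difference over the 7 lists was -0.02. Both calls were in the list of SMADs and intracellular regulators (41 probe sets, 21 genes), and in neither gene was a brighter probe set called. For YY1, a zinc finger factor that can repress SMAD-driven transcription, the called probe set read 8.36, 7.42 and 2.89 in E1, against 63.2, 59.7 and 52.1 in HCT116, and fell by 1.24 on the log2 scale (SE 0.12, limma adjusted p = 0.0199). Its brightest probe set read 856, 1849 and 1523 in E1, against 1498, 1167 and 1509 in HCT116, at -0.04, and 2 more stood at -0.56 and -0.21. For CTDSP2, a phosphatase of the SMAD linker, the called probe set fell by 0.91 (SE 0.13, limma adjusted p = 0.0473) with 105, 97.5 and 92.3 in E1, against 244, 191 and 206 in HCT116. The brighter CTDSP2 probe set stood at 0.23 (SE 0.16), of the opposite sign. With E1 array 1 alone the called probe sets stood at -1.16 for YY1 and -0.84 for CTDSP2. CTDSP2 was not called in any of 7 alternatives that kept all arrays. Both calls were kept without E1 array 1, when 10.6% of all probe sets were called. They were lost without any other array, when at most 9 of all probe sets were called.

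The SMADs that carry BMP signals were not called. SMAD1 averaged 206 ± 17.0 in E1 and 222 ± 35.9 in HCT116 (SD, n = 3 each), with a 95% interval of the log2 difference from -0.44 to 0.26. Both SMAD5 probe sets were lower on every E1 array, at -0.69 (limma adjusted p = 0.182) and -0.55 (limma adjusted p = 0.280), and at -0.59 and -0.33 with E1 array 1 alone. SMAD4, the shared partner, read 271, 455 and 567 in E1, against 319.6, 297 and 278 in HCT116, so its sign differed between E1 arrays. Of the remaining regulators with the smallest p, the large zinc finger protein HIVEP1 stood at 0.62 and the corepressor SKI at -0.61 (limma adjusted p = 0.190 and 0.199).

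Among 7 probe sets of 6 other receptors 0 were called by limma, and an unadjusted p under 0.05 gave 1 higher and 1 lower. ACVR1, a type I BMP receptor, read 195, 260.5 and 351 in E1, against 155, 178 and 141 in HCT116, at 0.63 (SE 0.21, limma adjusted p = 0.238). ACVR2B, a type II receptor shared with activins, read 78.8, 86.4 and 56.8 in E1, against 138, 134 and 165 in HCT116, at -0.75 (SE 0.15, limma adjusted p = 0.106). The arrays of the lines did not overlap for either gene, and with E1 array 1 alone the values were 0.26 and -0.68. BMPR1B, another type I receptor, was dim, at 24.3 ± 14.2 in E1 and 7.46 ± 1.80 in HCT116 (SD, n = 3 each).

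Of 20 probe sets of 13 other BMP and GDF ligands 0 were called, and an unadjusted p under 0.05 gave 1 higher and 0 lower in limma. That was the brightest GDF11 probe set, at 0.44, with 28.5 ± 8.35 in E1 and 12.6 ± 4.71 in HCT116 (SD, n = 3 each). GDF10 and GDF9 followed at 0.19 and 0.14. Of 14 probe sets for 6 genes that cleave ligands or antagonists 0 were called by limma, and an unadjusted p under 0.05 gave 0 higher and 3 lower. FURIN, the convertase that cuts BMP precursors, read 92.9, 33.1 and 50.6 in E1, against 88.2, 128 and 99.4 in HCT116, and stood at -0.64 over all arrays, or -0.13 when E1 array 1 stood alone. BMP1, a protease that cleaves the antagonist chordin and is no BMP ligand, stood at -1.18 (limma adjusted p = 0.0976) and -1.19 on 2 probe sets and at 0.01 on its brightest. With E1 array 1 alone these were -0.72, -0.16 and 0.42. PCSK5, another convertase, stood at 0.28 on the probe set of smallest p, or -0.05 with E1 array 1 alone, and at -0.10 on its brightest.

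Of 13 probe sets for 10 secreted antagonists and modulators 0 were called by limma, and an unadjusted p under 0.05 gave 1 higher and 1 lower. FSTL1, a follistatin-related glycoprotein, read 245, 214 and 403 in E1, against 152, 174 and 131 in HCT116, at 0.76 (SE 0.24, limma adjusted p = 0.217). All E1 arrays were above HCT116, and the value with E1 array 1 alone was 0.59. The antagonists FSTL3 and NBL1 stood at -1.18 and -1.76 over all arrays, and at -0.20 and -0.28 for E1 array 1 by itself. NBL1 read 269, 78.1 and 5.50 in E1, against 469.9, 251 and 309.7 in HCT116, so its low values were on the E1 arrays with little 5′ signal. In the 7 lists, 41 probe sets had a mean intensity of at least 100. Of these, 6 were lower by at least 1 log2 unit on both E1 arrays 2 and 3 than on E1 array 1. Over all 8930 probe sets of that intensity the share was 8.58%.

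Of 23 probe sets for 12 other BMP target genes 0 were called by limma, and an unadjusted p under 0.05 gave 0 higher and 5 lower. MSX2, a homeobox factor induced by BMP in development, was lower on 2 probe sets and on every E1 array. The brighter read 84.4, 85.1 and 74.6 in E1, against 173, 182 and 253 in HCT116, at -1.04 (SE 0.16, limma adjusted p = 0.0599). The other read 34.9, 25.6 and 32.8 in E1, against 118, 99.2 and 79.1 in HCT116, also at -1.04 (SE 0.15, limma adjusted p = 0.0507). The E1 arrays were alike for both, and with E1 array 1 alone the second stood at -0.96. Under alternatives that kept all arrays the probe set at 0.0507 was called in 3 of 7. The remaining MSX2 probe set was dim, at 7.31 ± 5.67 in E1 and 9.88 ± 1.74 in HCT116 (SD, n = 3 each). TBX3, a T-box repressor, read 51.3, 70.2 and 53.1 in E1, against 159.6, 96.3 and 157 in HCT116, at -0.89 (SE 0.20, limma adjusted p = 0.120). HAMP, the hormone hepcidin, stood at -0.36. The related homeobox gene MSX1 averaged 759 ± 184 in E1 and 748 ± 54.4 in HCT116 (SD, n = 3 each), with a 95% interval from -0.45 to 0.45.

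**Figure D4:**
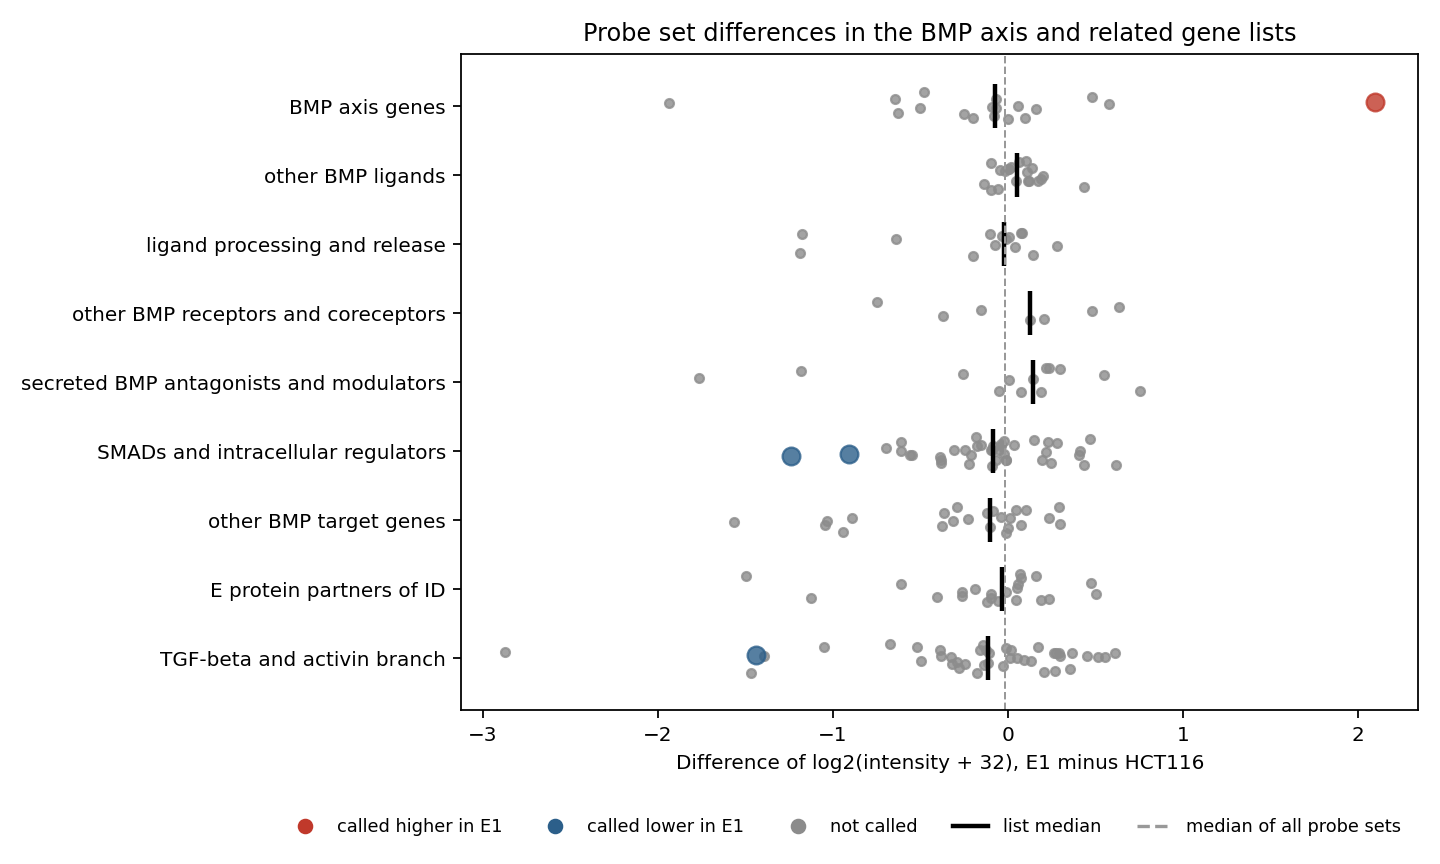
Difference of log2(intensity + 32), E1 minus HCT116, of each probe set in the BMP axis, 7 lists of other BMP pathway genes and a TGF-beta and activin list, with list medians as black bars and called probe sets in colour. BMP4 is the 1 called probe set above 0, and YY1, CTDSP2 and LTBP4 are called below it.

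The E proteins, which ID proteins bind, had 22 probe sets for 3 genes, 0 of them called by limma, and an unadjusted p under 0.05 gave 1 higher and 1 lower. TCF12 averaged 644 ± 61.3 in E1 and 455 ± 64.1 in HCT116 (SD, n = 3 each), at 0.48 (limma adjusted p = 0.208). The TCF3 probe sets disagreed, from 0.50 on a dim one to -1.50 on one that read 74.4, 1.29 and 2.64 in E1, against 106, 79.9 and 147 in HCT116. TCF4 stayed dim in both lines, and its value of smallest p was -0.26.

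The TGF-beta and activin branch, which uses SMAD2 and SMAD3, gave 0 higher and 1 lower of 42 probe sets in limma, and an unadjusted p under 0.05 gave 4 higher and 5 lower and a median of -0.11. LTBP4, which tethers latent TGF-beta to the matrix, fell by 1.44 (SE 0.17, limma adjusted p = 0.0298) on 1 probe set, and its 2 others stood at -0.25 and -0.29. That call too was kept without E1 array 1, when 10.6% of all probe sets were called. It was lost without any other array, when at most 9 of all were called. With E1 array 1 alone the called LTBP4 probe set stood at -1.16 and the 2 others at 0.35 and 0.24. The probe sets of 3 other genes in this branch disagreed, with 0 called by limma. SMAD3 stood at -1.05, -1.39 and -0.67 on 3 probe sets and at 0.09 on its brightest. With E1 array 1 alone these were -0.66, -0.71, -0.37 and -0.07. The type I activin receptor ACVR1B stood at 0.55 on its brightest and at -0.52 on the next, and the activin subunit INHBA at 0.51 and -0.18 on 2 dim probe sets.

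The genes whose profile over the 6 arrays was most like that of BMP4 were sought among 7993 probe sets with 1 symbol and a mean intensity of at least 100. Likeness was the root mean square distance between log2 profiles, each set to 0 at its HCT116 mean, so it ranks genes on the contrast that chose BMP4 and is given without a test. The nearest was PRF1, the pore-forming protein perforin, at a distance of 0.20, followed by TUBA1A, an alpha-tubulin, at 0.20, the surface glycoprotein CD24 at 0.35, the neuronal calcium sensor VSNL1 at 0.38 and PEG10, a gene derived from a retrotransposon, at 0.40. PRF1, known for its part in killing by lymphocytes, read 521, 348 and 487 in E1, against 67.0, 65.6 and 99.7 in HCT116. Of 6 leukocyte markers listed 4 were measured, and 0 of these had a mean intensity of at least 100. They summed to 115 to 164 in E1 and 159 to 227 in HCT116. The source of the PRF1 signal was not tested. TUBA1A read 1686, 882 and 1101 in E1, against 254, 235 and 412 in HCT116, with array 1 the highest in E1 as for BMP4. PEG10 read 177, 144 and 198 in E1, against 48.5, 17.9 and 38.4 in HCT116. The log2 difference of this PEG10 probe set was 1.63, and its other probe set stood at 1.08. CD24 stood at 2.26 on the probe set ranked here and between 0.94 and 2.27 on its 5 others. VSNL1 stood at 2.14 on the ranked probe set and 2.32 on its other. The intensity limit was set on the mean of all 6 arrays. PRF1 and PEG10 passed it only through E1, with HCT116 means of 77.4 and 34.9.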

How the data were processed

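The authors deposited linear intensities of 22283 probe sets on 6 arrays, all above 0. The sources used here do not give their summarization, background correction or scaling, and no detection call was used. The total RNA was extracted with Trizol, per the labels' protocols. Precision is limited by the number of arrays. Each of the 6 columns belonged to 1 array.

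Intensities were taken as log2(intensity + 32) with no further scaling. The fit did not use the 68 control probe sets. Of the other 22215, 19065 carried 1 gene symbol, 1043 several and 2107 none in the platform annotation, and probe sets with several were not named. Symbols were checked by Entrez number against RefSeq genes of GRCh38.p14, with 0 changed. All probe sets were fitted with limma 3.58.1 in R 4.3.3 (lmFit, eBayes, two-sided, Benjamini-Hochberg over 22215), E1 minus HCT116, and called at an adjusted p under 0.05. Each adjusted p comes from this fit. The scripts were tested on simulated data. Figures were drawn with matplotlib 3.10.9.

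Members and lists were chosen with earlier results of these data known. Named are all members, and per list every called gene and up to 3 more of smallest p, plus 5 genes most like BMP4, leaving out chromosome Y. MSX1, SMAD1 and SMAD4 and further probe sets of named genes were added after their values were seen. Same-numbered arrays did not deviate together (correlations of -0.04, -0.31 and -0.09), and numbers were not taken as pairs. With E1 arrays so unlike in RNA quality, these correlations cannot exclude pairs. With the replicate block 0 probe sets were called. The alternatives were quantile normalization, array medians subtracted, offsets of 1 and 100, the lowest 40% of probe sets left out, 1 probe set or the mean per gene, no _x_at and _s_at probe sets, trended and robust eBayes, the replicate block, a threshold of 0.01, leaving out each array, and E1 array 1 alone.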

Additional observations from a re-analysis of the deposited data

Results flagged for a closer look

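The GAPDH control probe sets, which lie outside the comparison, gave a 3′ to 5′ signal ratio of 34.1 on E1 array 2 and 71.9 on E1 array 3, against at most 0.811 on the HCT116 arrays. On the same arrays the 5′ control read 209.9 and 94.0, against 9408 to 9806 on the HCT116 arrays, and ID1 and ID3 were at their lowest. The part of this in the results was not tested.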

How the results depend on the processing

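The BMP4 difference kept its sign under every alternative run, from 1.90 to 2.25 with all arrays, from 1.87 to 2.29 without 1 array, and 2.47 with E1 array 1 alone. Since BMP4 was chosen by this difference, whether it was called under an alternative is no measure of its stability. The 171 calls over all 22215 probe sets became 111 with an offset of 100, 5 at a threshold of 0.01 and 0 with the replicate block. With the block an unadjusted p under 0.05 in limma gave 733 higher and 2393 lower. Other settings fitted fewer features. They gave 310 calls of 13329 without the lowest 40% of probe sets, and 50 of 11963 with 1 probe set per gene. The mean per gene gave 47 of 11963, and leaving out _x_at and _s_at probe sets gave 28 of 11813. All of the 50 and all of the 28 were among the 171, so part of each fall is probe sets taken out. The 1 member call, BMP4, became 0 with either offset, with the block and at 0.01. Without _x_at and _s_at probe sets BMP4 was not in the fit, because its single probe set is of the _s_at type. The 0 member calls of that setting therefore say nothing about BMP4. The 2 pathway calls became 1 with array medians subtracted or either offset. They became 0 with the mean per gene, with the block and at 0.01. The count was also 0 with 1 probe set per gene and without _x_at and _s_at probe sets. Both of these settings leave the 2 called probe sets out of the fit, so their loss there was set by the filter. Where the count stayed at 2 with all arrays, the probe sets were not the same. With quantile normalization or trended and robust eBayes they were YY1 and MSX2, and without the lowest 40% they were 2 MSX2 probe sets. Leaving out 1 array gave 5 to 2358 calls over all probe sets, 0 to 3 for the members and 0 to 17 for the pathway. The highest counts came without E1 array 1, when only the E1 arrays with low 5′ signal remained, and then ID1 and ID3 were called lower. Without any other array there were at most 9 calls over all probe sets and 0 for the members. With E1 array 1 alone several differences changed sign. Among them were ID1 at 0.34, ID3 at 0.43, the brightest SMAD4 probe set at -0.12 and PCSK5 at -0.054. The cause of these changes was not tested. Of 253 values of the other member probe sets under alternatives, 241 moved by less than the spread between arrays. That spread includes the split of the E1 arrays, so the count is no measure of stability. ID1 is among the 241 without E1 array 1, though it went from -1.94 to -3.07.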
